A study of Homo sapiens with 6 samples.

Results

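The histone cluster genes make the histone proteins that package DNA, and most of them lie in tandem groups that are copied into RNA mainly while a cell replicates its DNA. Members were taken as the rows of the deposited gene table named HIST1H, HIST2H, HIST3H or HIST4H, without names containing PS (pseudogene rows), that had 10 or more estimated counts in at least 2 of the 6 libraries. Of 58884 genes in the table, 75 met the name rule and 36 of these met the count rule. They comprised 2 H1, 7 H2A, 14 H2B, 6 H3 and 7 H4 genes. Of the 36, 33 were annotated as protein-coding and 3, namely HIST2H2BA, HIST2H2BB and HIST2H2BD, as transcribed pseudogenes. On GRCh38, 22 members lay on chromosome 6 between 26045411 and 27893843, 13 on chromosome 1 and 1, HIST4H4, on chromosome 12.

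The 6 libraries were RNA-seq of a human immortalized ventricular cardiomyocyte line. The labels name T0519, whereas the paper gives AC16 for its RNA-seq. The paper uses AC16 and T0519 as separate lines, so which of them was sequenced could not be told. NC cells had received negative control siRNA and SiCIRBP cells siRNA against CIRBP, a cold-inducible RNA-binding protein, with 3 libraries each (NC_1 to NC_3 and SiCIRBP_1 to SiCIRBP_3). The paper left NC_1 and SiCIRBP_2 out of its comparison because they departed from the other libraries, so the comparison of NC_2 and NC_3 with SiCIRBP_1 and SiCIRBP_3 is given first and all 6 libraries beside it. Nothing in the labels says that libraries of a group came from separate cultures, so p-values rest on the spread between libraries, which may be technical. NC_1 and SiCIRBP_2 were left out for how they looked in the same expression data. The p-values over the other 4 libraries can therefore be too small.

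In an ordinary mRNA the 3' end is cut and given a poly(A) tail. The mRNAs of replication-dependent histone genes end instead just after a short stem-loop, which is bound by the protein SLBP and cut with the help of the U7 snRNP. They are made in S phase and degraded when DNA replication stops, whereas replication-independent histone genes, such as those of H2A.Z and H3.3, are transcribed through the cell cycle into polyadenylated mRNA. Some cluster genes also give longer, polyadenylated transcripts, which are known to be the form that remains in cells that have left the cell cycle. The labels do not say whether libraries were made from poly(A) RNA or from RNA depleted of ribosomal RNA, and the values below cannot be read as the total amount of histone mRNA.

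The stem-loop is shown for 6 members, 1 for each form of it found, because it marks the genes whose mRNA can end without a poly(A) tail. Capitals mark the 16 bases of the stem-loop within the transcript, and coordinates are those of GRCh38 with the GENCODE 29 annotation. Each lies downstream of the stop codon in an annotated transcript.
HIST2H2AA3 chr1:149842218-149842243 (minus strand): caaaaGGCTCTTTTCAGAGCCaccca
HIST1H2BD chr6:26158582-26158607 (plus strand): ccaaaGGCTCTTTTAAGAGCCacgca
HIST1H4H chr6:26285126-26285151 (minus strand): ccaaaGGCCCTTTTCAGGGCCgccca
HIST2H4A chr1:149833027-149833052 (plus strand): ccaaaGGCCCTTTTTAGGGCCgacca
HIST1H3E chr6:26225591-26225616 (plus strand): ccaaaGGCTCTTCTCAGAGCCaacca
HIST1H2AG chr6:27133510-27133535 (plus strand): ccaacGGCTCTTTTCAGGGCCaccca
The form of HIST2H2AA3 was shared by 14 members of the H2A, H2B and H3 families. That of HIST1H2BD was found in 4 members, that of HIST1H4H in 4 H4 genes and that of HIST2H4A in 3 H4 genes, and those of HIST1H3E and HIST1H2AG in 1 member each. Among annotated transcripts with enough sequence after the stop codon, 27 of 29 members carried it within 100 bases of the stop codon (93.1%). Outside the histone rows the same search found it in 1 of 19359 protein-coding genes, H2AFX. In 22 of the 27 members, an annotated transcript ran 50 or more bases past the stem-loop.

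Kept and left-out rows differed in their annotation. Of 37 protein-coding histone rows left out by the count rule, 30 had GENCODE 29 models that ended at the stop codon, against 4 of the 33 protein-coding members. No left-out row exceeded 28 counts in any library, and 9 were at 0 in all 6. Among the members, 23 reached 10 counts in all 6 libraries. HIST1H4E, HIST3H2BB and HIST4H4 were kept only through the SiCIRBP libraries and HIST1H1E only through the NC libraries, so a difference between groups was built into the choice of these 4.

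CIRBP, the target of the siRNA, had between 85.8 and 91 CPM (counts scaled to a common library total by the TMM method) in the NC libraries. It had 54.8 in SiCIRBP_1, 24.3 in SiCIRBP_2 and 46.3 in SiCIRBP_3, so the groups did not overlap. Over the 4 libraries it changed by a log2 fold of -0.81 (standard error 0.11, adjusted p = 0.00828 by the quasi-likelihood test of edgeR, adjusted after Benjamini and Hochberg over all genes). Of 13 cardiomyocyte markers, 9 had under 10 counts in all libraries, among them the sarcomere genes TNNT2, MYH6, MYH7, MYL2 and TTN, while GATA4, an early heart transcription factor, was between 22.6 and 63 TPM (the authors' level per gene, scaled to a common library total and corrected for transcript length). The 13 cardiomyocyte markers summed to between 40.9 and 89.6 TPM in a library, and 9 fibroblast markers to between 3916 and 5576. Total estimated counts ran from 25726259 to 29919566 per library. In bulk RNA, fewer cells of a type or of a cell cycle phase and less RNA per cell cannot be told apart.

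The histone cluster genes were led by a few members. On the TPM scale HIST1H2BK, an H2B gene, was highest with a mean of 255 over the 6 libraries. It was followed by the linker histone gene HIST1H1C with 95.4, the H2A genes HIST2H2AA3 with 88.1 and HIST2H2AA4 with 35.3, and the H4 gene HIST2H4A with 33.4. HIST1H2BK alone gave between 35.4% and 42.4% of the summed CPM of the members in a library. In the H3 family the highest was HIST1H3H, at a mean of 2.81 TPM.

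**Figure D1:**
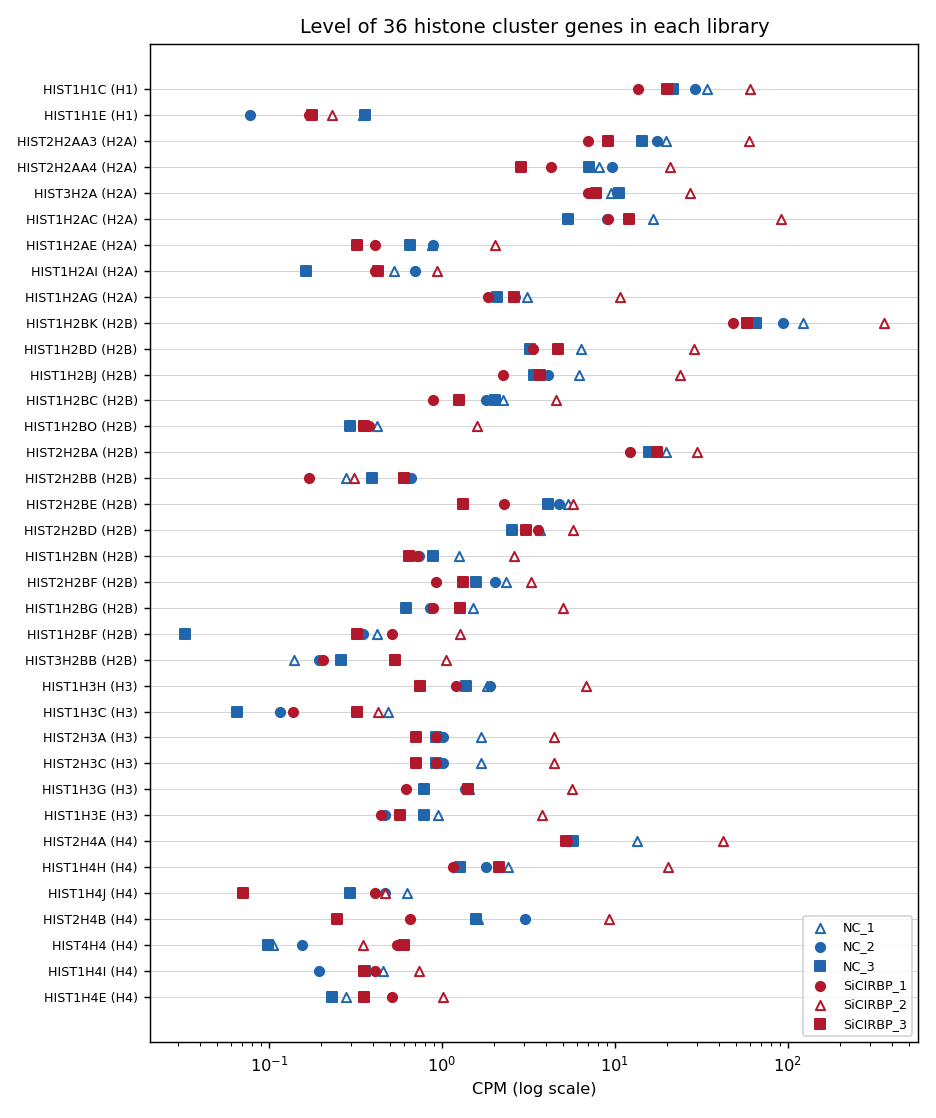
Level of each of the 36 members in each library, in CPM on a log axis, grouped by family and ordered by mean TPM. Blue marks stand for NC and red for SiCIRBP libraries, and open triangles for the libraries the paper left out. SiCIRBP_2 lies to the right of all other libraries in 31 of the 36 genes.

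Over NC_2, NC_3, SiCIRBP_1 and SiCIRBP_3, 33 members could be tested, and HIST1H1E, HIST1H3C and HIST3H2BB were below edgeR's expression filter. Few of the 33 passed the test. 4 fell (12.1%), where 9.76% of the 15421 genes tested fell, and 1 rose (3.03%), where 9.62% rose (adjusted p under 0.05). With a change of at least 2-fold asked for as well, 3 members fell and 1 rose, against 1.8% and 1.82% of all genes. Some members are near-identical copies. With these summed, 2 of 30 fell and 1 rose at the adjusted p threshold alone, where 2987 of 15418 genes were called in either direction. The log2 fold changes of the 33 ran from -2.33 to 2.17 with a median of -0.23, beside a median of -0.00 over all genes, and 23 were negative. In 13 of the 33, both SiCIRBP values lay below both NC values (39.4%, against 33% of all genes), and in 6 both lay above (18.2%, against 32.5%).

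The members that fell came from the HIST2 group on chromosome 1, which held 11 members. In summed CPM over the same 4 libraries, HIST2 was 32% lower, HIST1 24.8% and HIST3 27.5%, while HIST4H4, the 1 HIST4 member, was higher. A lower sum was thus not particular to HIST2. HIST2H2AA3 and HIST2H2AA4 are near-identical copies of 1 H2A gene, and all of the 31-base words of HIST2H2AA3 transcripts occur in those of HIST2H2AA4. HIST2H2AA3 had 17.4 and 14.4 CPM in NC_2 and NC_3, and 7.02 and 9.12 in SiCIRBP_1 and SiCIRBP_3. HIST2H2AA4 had 9.59 and 7.12 CPM in the same NC libraries, and 4.25 and 2.85 in the same SiCIRBP libraries. Neither gene had overlapping values between these groups. Their log2 fold changes were -0.98 (standard error 0.18, adjusted p = 0.0176, edgeR) and -1.23 (standard error 0.26, adjusted p = 0.0243, edgeR). Because the authors' counting could split reads between the copies, the 2 were also summed, which gave -1.06 (standard error 0.15, adjusted p = 0.00937, edgeR). The summed CPM was 27 and 21.5 in NC_2 and NC_3 and 11.3 and 12 in SiCIRBP_1 and SiCIRBP_3.

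HIST2H2BE, an H2B gene known to be expressed also in non-dividing cells, had 4.74 and 4.13 CPM in NC_2 and NC_3 against 2.29 and 1.32 in SiCIRBP_1 and SiCIRBP_3. It fell by 1.29 on the log2 scale (standard error 0.31, adjusted p = 0.0336, edgeR), on 122 and 126 counts in NC_2 and NC_3 and 67 and 37 in SiCIRBP_1 and SiCIRBP_3. The H4 gene HIST2H4B went from 3.03 and 1.57 CPM to 0.651 and 0.249, at a log2 fold change of -2.33 (standard error 0.54, adjusted p = 0.0304, edgeR). Its copy HIST2H4A, which encodes the same H4 protein, had 5.48 and 5.74 CPM in NC_2 and NC_3 and 5.27 and 5.2 in SiCIRBP_1 and SiCIRBP_3. Summed over both copies, the fall was no longer past the threshold, at a log2 fold change of -0.47 (SE 0.18, adjusted p = 0.102, edgeR). How reads were divided between the copies was not tested.

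HIST4H4, a single H4 gene on chromosome 12, was the 1 member that rose, with 4 and 3 counts in NC_2 and NC_3 and 16 and 17 in SiCIRBP_1 and SiCIRBP_3. Its log2 fold change of 2.17 (standard error 0.54, adjusted p = 0.0368, edgeR) rests on these few counts, and the gene met the count rule only through the SiCIRBP libraries.

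**Figure D2:**
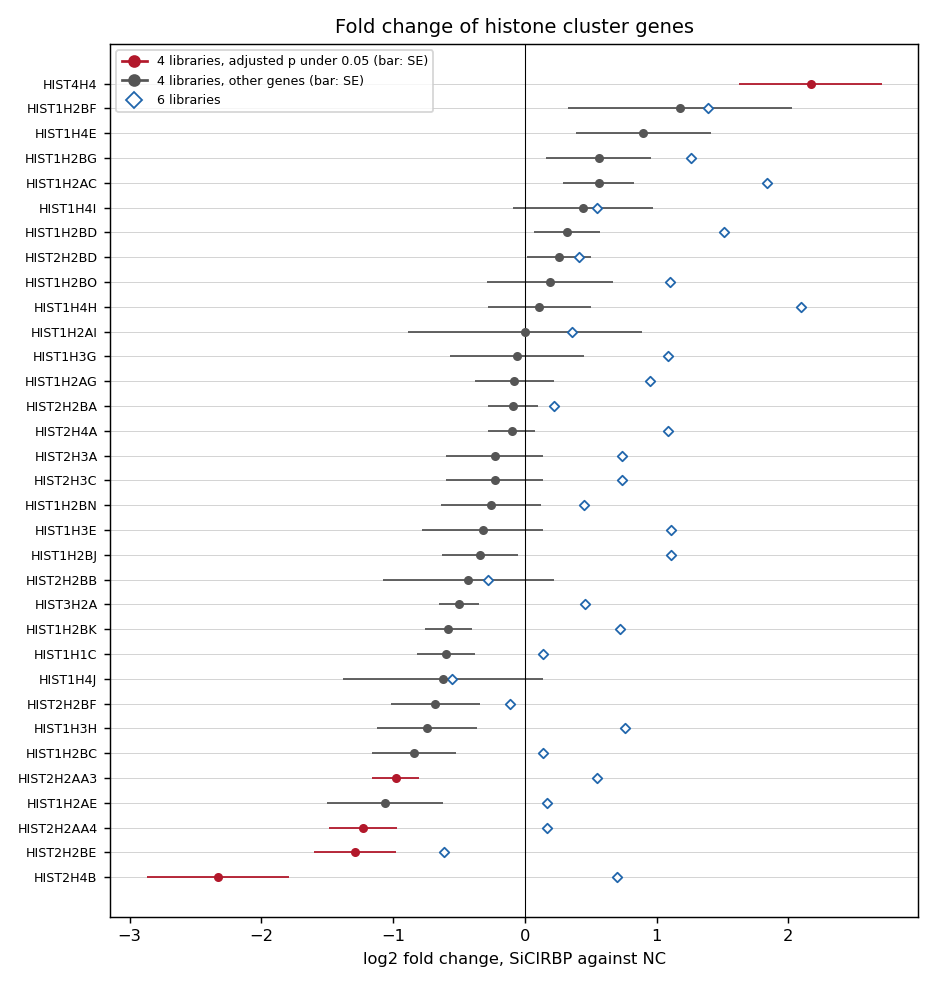
Log2 fold change of SiCIRBP against NC for the 33 members tested over the 4 libraries (points, bars give the standard error) and over all 6 libraries (open diamonds, 31 members). Red points passed the adjusted p threshold over the 4 libraries, and most diamonds lie to the right of their points.

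Several abundant members lay close to the threshold. HIST1H2BK had 93.1 and 65.2 CPM in NC_2 and NC_3 and 48.4 and 57.7 in SiCIRBP_1 and SiCIRBP_3, with no overlap between the groups and a log2 fold change of -0.58 (standard error 0.18, adjusted p = 0.0641, edgeR). HIST1H1C, the gene of linker histone H1.2, had 29.1 and 21.7 CPM against 13.6 and 19.9 in the same libraries, at a log2 fold change of -0.60 (standard error 0.22, adjusted p = 0.0978, edgeR). DESeq2 called both lower, at an adjusted p of 0.00632 for HIST1H2BK and 0.0343 for HIST1H1C. HIST3H2A, an H2A gene in the HIST3 group, had 10.3 and 10.6 CPM against 7.02 and 7.77, at an adjusted p of 0.0599 in edgeR and 0.128 in DESeq2.

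The H2A gene HIST1H2AC, of whose 3 GENCODE 29 transcripts 2 extend 1114 or more bases past the stem-loop, had 9.01 and 5.38 CPM in NC_2 and NC_3 and 9.11 and 12 in SiCIRBP_1 and SiCIRBP_3. Its log2 fold change of 0.56 missed the threshold (standard error 0.27, adjusted p = 0.184, edgeR). The H2B gene HIST1H2BD had 3.18 and 3.25 CPM against 3.36 and 4.67, with a log2 fold change of 0.32 (adjusted p = 0.39, edgeR), and HIST1H2BJ, another H2B gene, had 4.08 and 3.41 against 2.26 and 3.67, with -0.34 (adjusted p = 0.448, edgeR). HIST1H2BC, which starts 219 bases from HIST1H2AC on the other strand, had 1.79 and 2.03 CPM against 0.89 and 1.25. Its log2 fold change was -0.84 (adjusted p = 0.111, edgeR). The 2 genes of this divergent pair thus had values of opposite sign, neither past the threshold.

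The H3 members, and the H4 members other than HIST2H4A, had low counts and no further change past the threshold. HIST1H3H, an H3 gene, had 1.9 and 1.38 CPM in NC_2 and NC_3 and 1.2 and 0.748 in SiCIRBP_1 and SiCIRBP_3 (adjusted p = 0.203, edgeR). HIST2H3A and HIST2H3C, copies with the same sequence and equal counts in each library, each had 1.01 and 0.918 CPM against 0.925 and 0.712 (adjusted p = 0.686, edgeR). Among the H4 genes, HIST1H4H had 1.79 and 1.28 CPM against 1.16 and 2.14, and HIST1H4J 0.466 and 0.295 against 0.411 and 0.0712 in the same libraries, with overlapping groups. HIST1H4J and HIST1H4H had adjusted p-values of 0.594 and 0.861 (edgeR). HIST1H3C and HIST1H1E, which were not tested, did not exceed 14 and 11 counts.

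Summed by family in CPM, every family was lower in SiCIRBP_1 and SiCIRBP_3 than in NC_2 and NC_3. The 36 members together had 228 CPM in NC_2 and 177 in NC_3, but 134 in SiCIRBP_1 and 163 in SiCIRBP_3, so that the mean was 26.8% lower and the groups did not overlap. The family sums were lower by 34% for H1, 28.4% for H2A, 26.1% for H2B, 18.5% for H3 and 14.2% for H4, which is given with no test. In TPM they were lower by 38%, 46.2%, 27%, 7.9% and 30%, and the H3 sums overlapped there, with 5.21 TPM in NC_3 and 5.92 in SiCIRBP_3. The H2B sum and the total include the 3 transcribed pseudogenes. Of these HIST2H2BA was the highest, with 15.8 and 15.7 CPM in NC_2 and NC_3 and 12.2 and 17.5 in SiCIRBP_1 and SiCIRBP_3. Without HIST1H2BK the other 35 members summed to 135 and 112 CPM against 85.4 and 105. The 39 rows left out by the count rule went the other way at a low level. They summed to 2.45 and 1.64 CPM in NC_2 and NC_3 and to 2.57 and 2.81 in SiCIRBP_1 and SiCIRBP_3. Some markers of cell types moved over the same 4 libraries, where 9.76% of all genes fell and 9.62% rose. The part of these markers in the histone values was not tested. Of the 4 cardiomyocyte markers tested 2 fell, GATA4 (-0.41, adjusted p = 0.0211, edgeR) and the heart transcription factor NKX2-5 (-1.24, adjusted p = 0.016, edgeR). Of 8 fibroblast markers the collagen gene COL1A1 rose (0.87, adjusted p = 0.0332, edgeR) and the growth factor receptor gene PDGFRA fell (-0.38, adjusted p = 0.0297, edgeR). Of 5 smooth muscle markers TAGLN fell (-0.77, adjusted p = 0.0463, edgeR) and SMTN rose (0.45, adjusted p = 0.0272, edgeR), and their sum was 391 and 373 TPM in NC_2 and NC_3 against 172 and 270 in SiCIRBP_1 and SiCIRBP_3. VWF, an endothelial marker, rose (2.56, adjusted p = 0.0369, edgeR) at levels of at most 0.548 CPM, and the immune marker CD68 rose (0.64, adjusted p = 0.0437, edgeR).

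The NC libraries themselves differed in the histone sums by a like amount, with 100 CPM in NC_3 and 131 in NC_2 for H2B, against 76.7 and 94.2 in the SiCIRBP libraries.

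The libraries the paper left out had the highest histone levels of their groups. In SiCIRBP_2 the members summed to 842 CPM, which is 5.68-fold the mean of SiCIRBP_1 and SiCIRBP_3 and 3.62-fold the mean of the NC libraries. NC_1 had 292, or 1.44-fold the mean of NC_2 and NC_3. SiCIRBP_2 was the highest of the 6 libraries in 29 of the 31 members tested over all 6 (93.5%), against 31.1% of the 15217 genes tested. It was at least 2-fold above each other library in 22 of the 31 (71%), against 2.19% of all genes. NC_1 was above both other NC libraries in 24 of the 31 (77.4%), against 40.4% of all genes.

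The high level of SiCIRBP_2 was seen in all 5 families but not in all members. Against the mean of the NC libraries, the summed CPM in SiCIRBP_2 was 2.12-fold for H1, 4.24-fold for H2A, 3.5-fold for H2B, 4.08-fold for H3 and 5.58-fold for H4. HIST1H4H was highest in fold, with 20.4 CPM in SiCIRBP_2 against 2.42, 1.79 and 1.28 in NC_1, NC_2 and NC_3, or 11.1-fold their mean. HIST1H2AC followed at 8.74-fold, with 90.6 CPM in SiCIRBP_2 and 16.7 in NC_1. HIST1H2BD had 28.7 CPM in SiCIRBP_2 against at most 6.38 in any other library, and HIST1H2BK 357 against at most 122. Over the 36 members the median fold was 3.57.

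Of the 4 genes that fell over the 4 libraries, 3 were highest in SiCIRBP_2 by more than 2-fold. HIST2H2AA3 had 59.3 CPM in SiCIRBP_2 and 19.8 in NC_1, HIST2H2AA4 had 20.9 and 8.13, and HIST2H4B had 9.26 and 1.61. HIST1H1C likewise had 60.1 CPM in SiCIRBP_2 and 34 in NC_1, each the highest of its group. HIST2H2BE was an exception among the better counted members. It had 5.72 CPM in SiCIRBP_2 beside 5.36 in NC_1, a fold of 1.21 over the NC mean, so SiCIRBP_2 lay with the NC libraries while SiCIRBP_1 and SiCIRBP_3 lay below. SiCIRBP_2 was not the highest library for HIST1H1E, HIST1H3C, HIST1H4J, HIST2H2BB and HIST4H4, of which none exceeded 18 counts in any library. HIST2H2BA and HIST2H2BD, which are annotated as pseudogenes, were 1.75-fold and 1.86-fold the NC mean in SiCIRBP_2.

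**Figure D3:**
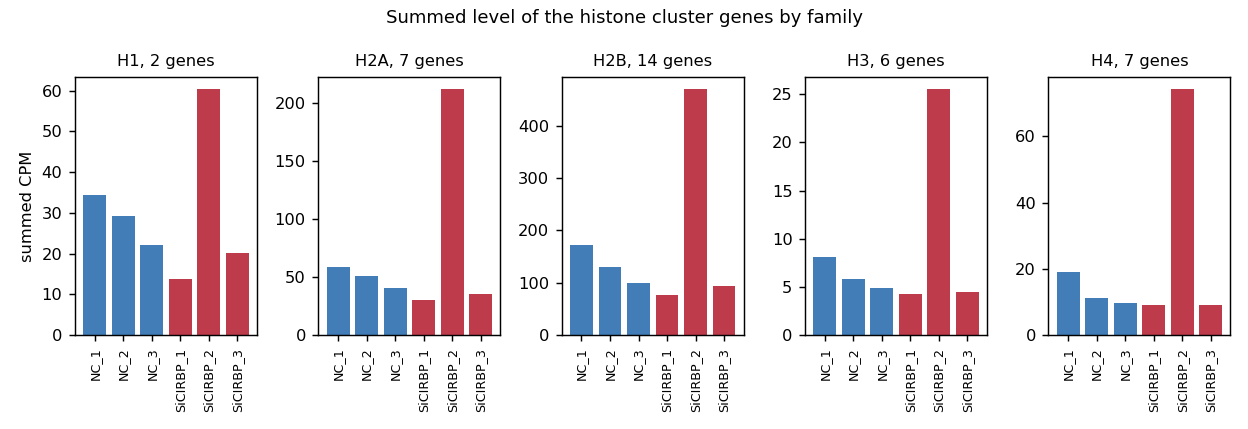
Summed CPM of the members of each histone family in each library (bars, blue NC and red SiCIRBP, each axis from 0). In each family SiCIRBP_2 is highest, and SiCIRBP_1 and SiCIRBP_3 lie below all 3 NC libraries.

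Over all 6 libraries the fold changes turned to the other sign for most members, and none passed the test. The median log2 fold change of the 31 members tested was 0.70, beside 0.01 over all genes, and 27 were positive. edgeR called 0 members and 0 genes in all (0%) at an adjusted p under 0.05. At an unadjusted p under 0.05 it gave 0 of the 31 members and 23.7% of all genes, and DESeq2 called 0 of the 26 members it gave an adjusted p, against 9.3% of its genes. No member had all SiCIRBP values below all NC values (0 of 31, against 16.6% of all genes), and 0 of 31 had all above (16.2% of all genes). Of the members filtered out there, HIST1H4E and HIST4H4 had all SiCIRBP values above all NC values, but both met the count rule only through the SiCIRBP libraries. The smallest adjusted p of a member was 0.231, that of HIST1H4H. Without SiCIRBP_2, the remaining 5 libraries gave 4 members lower and 1 higher, where 1118 of 15530 genes were called, against 2989 of 15421 over the 4 libraries.

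The same library differed in other genes too. The summed CPM of 31 interferon-stimulated genes was between 895 and 910 in the NC libraries, 510 in SiCIRBP_1, 7540 in SiCIRBP_2 and 1456 in SiCIRBP_3. The part of this response in the histone values was not tested. Genes of RNAs known to carry no ordinary poly(A) tail were listed as well. Of 34 in the table, 25 had under 10 counts in all libraries, among them the U7 gene RNU7-1 at 0, and their sum was nearly all from the mitochondrial ribosomal RNA genes MT-RNR1 and MT-RNR2. That sum was 2777 CPM in SiCIRBP_2, 0.913-fold the NC mean and within the 2475 to 4350 of the other libraries. Of the 8 tested over all 6 libraries, 4 were highest in SiCIRBP_2, against 31.1% of all genes. RN7SK had 5.25 CPM there against 1.34 to 3.94 in the other libraries, RPPH1, the RNA of RNase P, 2.29 against 0.245 to 0.548, RMRP, the RNA of RNase MRP, 2.06 against 0.641 to 1.1, and the small nucleolar RNA SNORD3A 1.52 against 0.155 to 0.616. Of 5 smooth muscle markers, 4 were highest in SiCIRBP_2, and their sum, nearly all TAGLN, was 1290 TPM against 172 to 391 in the other libraries, while 5 immune markers summed to between 9.21 and 13.2 TPM in all libraries. The part of these genes in the histone values was not tested either. RN7SK, the RNA of the 7SK particle that restrains transcription elongation, also rose over the 4 libraries, with a log2 fold change of 1.19 (adjusted p = 0.0332, edgeR).

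S phase genes were summed beside the cluster genes. The summed CPM of 46 of them, such as PCNA and RRM2, lay between 6023 in NC_3 and 6945 in SiCIRBP_3, with 6553 in SiCIRBP_2. Over the 4 libraries 11 of them rose (23.9%, against 9.62% of all genes) and 2 fell (4.35%, against 9.76%), with a median log2 fold change of 0.12. In the plot of the lists against the NC mean, the cluster genes of SiCIRBP_1 and SiCIRBP_3 lie on the lower side of the line and the S phase genes on the higher side. Both lists share libraries, and the difference between them was not tested.

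**Figure D4:**
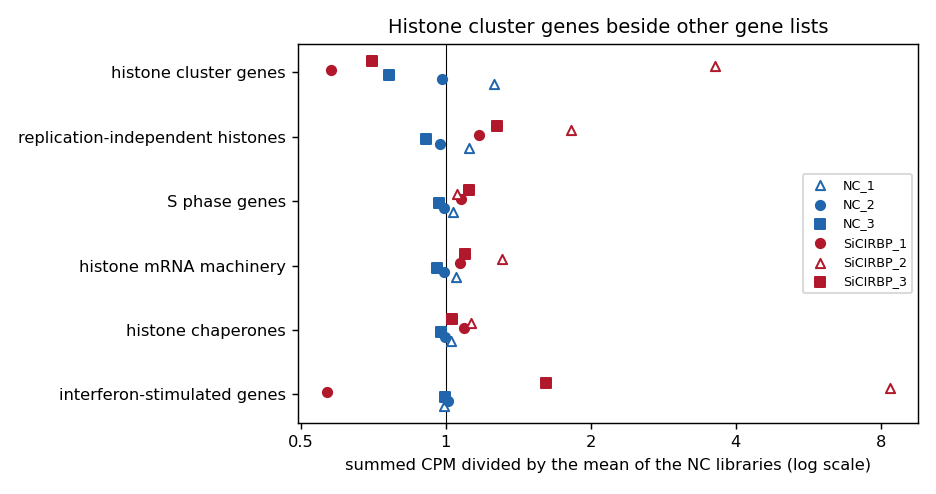
Summed CPM of the 36 histone cluster genes and of 5 fixed gene lists in each library, divided by the mean of the 3 NC libraries (log axis, line at 1). For the cluster genes SiCIRBP_2 stands at 3.62 and for interferon-stimulated genes at 8.37, while the S phase genes of all libraries lie close to 1.

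Replication-independent histone genes were fitted beside the cluster genes. Of 16 such genes, 11 passed the filter on low counts, and over the 4 libraries 6 of these rose (54.5%, against 9.62% of all genes) and 0 fell, with a median log2 fold change of 0.35. HIST1H1T, among the 16 but not the 11, is also a cluster row left out by the count rule. It had at most 1 count in a library. H2AFZ, the gene of the variant H2A.Z, had 193 and 168 CPM in NC_2 and NC_3 and 289 and 310 in SiCIRBP_1 and SiCIRBP_3, a log2 fold change of 0.73 (adjusted p = 0.00789, edgeR). H2AFX, the gene of the DNA damage-marking H2A.X, had 144 and 125 against 223 and 213 (0.69, adjusted p = 0.00842, edgeR). It is the 1 gene outside the cluster rows that carries the stem-loop, which is a mark of replication-dependent histone mRNA. It is nevertheless counted with the replication-independent genes here and in their sums.

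CENPA, the histone of the centromere, had a log2 fold change of 0.88 (adjusted p = 0.00983, edgeR), and H2AFJ of 0.78 (adjusted p = 0.0161, edgeR). The H3.3 genes H3F3A and H3F3B had 0.35 and 0.40 (adjusted p = 0.0303 and 0.0268, edgeR). H2AFV, H2AFY, H2AFY2, H1F0 and H1FX had log2 fold changes between 0.06 and 0.28 and did not pass. Over all 6 libraries none of the 11 passed edgeR's test, the smallest adjusted p being 0.101, and DESeq2 called 3. SiCIRBP_2 was the highest library in 8 of the 11, against 31.1% of all genes, so its high level was not particular to the cluster genes. The 16 genes summed to 3078 CPM in SiCIRBP_2, or 1.82-fold the NC mean, and to between 1541 and 2158 in the other libraries.

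On the TPM scale, the cluster genes were a smaller part of all histone RNA measured in SiCIRBP_1 and SiCIRBP_3. They summed to 555 TPM in NC_2, 429 in NC_3, 285 in SiCIRBP_1 and 358 in SiCIRBP_3, beside 2054, 2019, 2566 and 2752 TPM for the replication-independent genes. The share from cluster genes was thus 21.3%, 17.5%, 10% and 11.5% in these 4 libraries. It was 22.2% in NC_1 and 31.4% in SiCIRBP_2, the highest of all. The split between the groups over 4 libraries was not tested.

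The histone mRNA machinery list held genes of histone gene transcription and its cell cycle control, 3' end processing and mRNA decay. General RNA processing factors were among them, and the list changed in both directions. Of its 42 genes, 9 rose over the 4 libraries (21.4%, against 9.62% of all genes) and 4 fell (9.52%, against 9.76%), with a median log2 fold change of 0.12. SLBP, the stem-loop binding protein, had 120 CPM in both NC_2 and NC_3 and 127 and 147 in SiCIRBP_1 and SiCIRBP_3 (log2 fold change 0.19, adjusted p = 0.195, edgeR). NPAT, the coactivator of histone gene transcription, had 22.6 and 24.6 against 18.6 and 19.1 (-0.32, adjusted p = 0.0931, edgeR). Both missed the threshold.

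LSM11, a protein specific to the U7 snRNP, fell from 16.7 and 16.9 CPM to 11.8 and 12.1 (-0.49, adjusted p = 0.0355, edgeR). It had 12.1 CPM in NC_1 and 14.8 in SiCIRBP_2, so the groups overlapped over all 6 libraries. Its partner LSM10 had a log2 fold change of 0.26 (adjusted p = 0.146, edgeR). Over the 4 libraries ZNF473, a U7-associated processing factor, also fell (-0.47, adjusted p = 0.0229, edgeR). HINFP, a transcription factor of H4 genes, had -0.53 (adjusted p = 0.0199, edgeR), with its highest level of 41.7 CPM in SiCIRBP_2, and the exonuclease XRN1 -0.54 (adjusted p = 0.0407, edgeR). Among those that rose, CSTF3, a subunit of the cleavage factor for polyadenylated mRNA, was the 1 past 2-fold, from 17.9 and 18.1 CPM to 45 and 45.2 (1.32, adjusted p = 0.00273, edgeR). In the excluded libraries CSTF3 had 36.4 in NC_1 and 65.1 in SiCIRBP_2. The others that rose over the 4 libraries were CCNE1, CPSF6, LSM1, PCF11, SNRPD3, SNRPF, SNRPG and SRRT.

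Histone chaperones carry new histones to DNA. Of 27 tested, 5 rose (18.5%, against 9.62% of all genes) and 1 fell (3.7%, against 9.76%), with a median log2 fold change of 0.13. The S phase list shares genes with the chaperone list, such as ASF1B, and with the machinery list, such as CCNE1. The counts of these lists are therefore not separate results. ASF1B, which hands H3 and H4 to the assembly machinery in dividing cells, had 48.2 and 48 CPM in NC_2 and NC_3 and 101 and 91.7 in SiCIRBP_1 and SiCIRBP_3, a log2 fold change of 1.00 (adjusted p = 0.00465, edgeR). ASF1A, HJURP, DNAJC9 and RBBP4 also rose, and SRCAP, which loads H2A.Z, fell (-0.55, adjusted p = 0.0114, edgeR). SRCAP was lowest in SiCIRBP_2, at 80.2 CPM.

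The transcript length behind each TPM value was recovered from the ratio of estimated count to TPM. On genes with a single annotated transcript this implied length missed the annotated one by a median of 0.659% to 0.914% per library. HIST2H2AA3 came out at 549 bases in each library, the length of its single model, which ends 35 bases past the stem-loop, and HIST3H2A at 896 or 897 beside a model of 895. HIST1H2BK came out at between 812 and 863 bases although GENCODE 29 lists a single model of 381 bases, which is also the length given for it in the deposited table. The reason was not tested. The implied length differed little between libraries, and the TPM of the gene follows its counts.

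For some genes with several transcripts the length differed between libraries. HIST1H2BJ had 856 and 914 bases in NC_2 and NC_3 but 597 and 582 in SiCIRBP_1 and SiCIRBP_3, a difference of -33.4%, with 811 in NC_1 and 810 in SiCIRBP_2. HIST1H2BD had 780 bases in SiCIRBP_2, against 654 to 731 in the other libraries. Its annotated transcripts are 496 bases long with the stem-loop and 789 without it. HIST2H4A had 592 and 686 bases in NC_2 and NC_3 and 799 and 806 in SiCIRBP_1 and SiCIRBP_3, a difference of 25.6%. Of 13 members measurable in these 4 libraries, HIST1H2BJ and HIST2H4A were the 2 that differed by 10% or more. With 66 to 105 counts per library behind HIST1H2BJ, and with its transcripts told apart only by the authors' estimates, these differences were not tested.

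Promoters were searched because the members of a divergent pair start close together. RefSeq gave a promoter, from 250 bases before to 50 after the start, for 33 of the 36 members. The octamer, a motif of H2B promoters bound by the factor OCT1 (ATTTGCAT on either strand), was found in 11 of these 33 (33.3%) and in 1.8% of all 27305 promoters. It lay in 8 of 11 H2B and 3 of 7 H2A promoters and in 0 of the 2 H1, 6 H3 and 7 H4 promoters. Windows of divergent pairs overlap, and the 11 promoters held 8 different octamer positions. The letters CCAAT were found in 81.8% of the members' promoters and in 35.7% of all, and TATAAA in 60.6% and 12%. All 3 motifs were searched on both strands and none contains another.

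3 promoters with the octamer are shown, in RefSeq's GRCh38.p14, because HIST1H2BK is the most abundant member, and HIST1H2AC and HIST2H2BE had the highest and the lowest fold in SiCIRBP_2 of the members with it. Capitals mark the octamer, which begins 46 bases before the start of both HIST1H2BK and HIST2H2BE and 130 before that of HIST1H2AC, where it is read on the other strand.
HIST1H2BK promoter chr6:27146809-27147108 (minus strand): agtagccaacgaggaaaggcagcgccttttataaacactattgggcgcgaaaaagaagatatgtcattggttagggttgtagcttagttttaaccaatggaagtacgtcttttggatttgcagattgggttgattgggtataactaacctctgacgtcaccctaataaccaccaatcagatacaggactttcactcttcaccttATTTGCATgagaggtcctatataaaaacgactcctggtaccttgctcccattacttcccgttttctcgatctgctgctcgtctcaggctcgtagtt
HIST1H2AC promoter chr6:26123922-26124221 (plus strand): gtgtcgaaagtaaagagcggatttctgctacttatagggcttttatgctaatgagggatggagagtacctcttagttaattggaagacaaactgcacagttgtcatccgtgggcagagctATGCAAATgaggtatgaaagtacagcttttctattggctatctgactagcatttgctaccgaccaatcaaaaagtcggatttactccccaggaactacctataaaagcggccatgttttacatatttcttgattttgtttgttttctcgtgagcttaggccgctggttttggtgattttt
HIST2H2BE promoter chr1:149886633-149886932 (minus strand): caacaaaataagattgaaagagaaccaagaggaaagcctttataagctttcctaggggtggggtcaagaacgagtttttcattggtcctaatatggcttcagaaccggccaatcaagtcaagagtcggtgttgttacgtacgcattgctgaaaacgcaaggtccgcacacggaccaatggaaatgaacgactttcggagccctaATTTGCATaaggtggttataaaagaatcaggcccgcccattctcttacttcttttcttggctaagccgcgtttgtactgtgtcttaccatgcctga
Members with the octamer had a median fold of 4.1 in SiCIRBP_2 over the NC mean, between 1.21 for HIST2H2BE and 8.74 for HIST1H2AC. The 22 without it had a median of 3.57, between 0.887 for HIST1H1E and 11.1 for HIST1H4H, so the ranges overlapped. HIST1H2AC and HIST1H2BC share their octamer position and had folds of 8.74 and 2.27.

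Some counts could include reads of other genes, since it was not stated whether counting used the strand. HIST2H2BD shares 55.1% of its exon bases with HIST2H2BC on the opposite strand, and HIST2H2BB 64.2% of its bases with the transcript AC239798.4 on its own strand. HIST2H3A and HIST2H3C each share 173 bases with the H4 gene on the opposite strand. HIST1H4J shares 82.2% of its 31-base words with HIST1H4K, and their values are uncertain in the same way. HIST2H2BA had an implied transcript length between 4955 and 7231 bases, beyond the 752 bases of its longest GENCODE 29 transcript and of the deposited table, and the reason was not tested.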

How the data were processed

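The deposited table gives, per gene and library, an estimated count (reads assigned to the gene, not always whole) and a TPM value, in which the authors scaled counts by transcript length and library. The submitters' processing notes name fastp, HISAT, RSEM and hg38 without versions. Columns with the authors' fold changes and p-values were not used. Rounded estimated counts entered edgeR 4.0.16 under R 4.3.3 (TMM, filterByExpr, quasi-likelihood test, Benjamini-Hochberg over all genes tested), with standard errors as the size of the log2 fold change over the square root of F. CPM values used TMM factors of all 6 libraries. DESeq2 1.42.0, other scalings and filters, libraries left out and summed copies were alternatives. Gene positions and transcripts came from GENCODE 29 and promoters from RefSeq. Procedures were tested on simulated data.

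The members, lists and tests were chosen with earlier results of these data known. Genes named are the 4 members of each family with the highest mean TPM. Members and list genes past adjusted p under 0.05 and 2-fold are named as well. So are SLBP, NPAT and the replication-independent histone genes that passed the filter. Machinery, chaperone and cell type marker genes past adjusted p under 0.05 alone were named too, not all of them with values. Others named for an exception or a shared position were chosen after their values were seen. Counting error is large for members under 30 counts. In the check of pairing, deviations of libraries with the same replicate number correlated at -0.118, 0.006 and -0.026, so the numbers were not taken as pairs.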

Additional observations from a re-analysis of the deposited data

How the results depend on the processing

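Over the 4 libraries, 1 histone gene was higher and 4 were lower. Using all 6 libraries gave 0 and 0. With 1 library left out in turn, counts were 0 to 2 higher and 0 to 10 lower (0 lower without NC_2 or NC_3, 8 without SiCIRBP_1, 10 without SiCIRBP_3), where the lone library of a group is assumed to vary like the others, and HIST1H2AC, HIST1H2BK and HIST1H1C were among those added. The calls over all genes moved as well, from 2989 of 15421 to 168 of 16138 without NC_2, 64 of 15869 without NC_3, 7048 of 15916 without SiCIRBP_1 and 6418 of 15961 without SiCIRBP_3, which holds for the lists of genes given further on too. Without a filter on low counts 2 were higher and 7 lower. DESeq2 gave 0 higher and 5 lower, HIST1H2BK and HIST1H1C among them, and gave HIST2H4B and HIST4H4 no adjusted p. At least 10 counts in every library gave 0 higher and 3 lower. Summing near-identical copies gave 1 higher and 2 lower of 30. Over all 6 libraries, where 0 were higher and 0 lower, leaving out 1 library gave 0 to 1 higher and 0 to 4 lower, each highest value without SiCIRBP_2. With the replicate number as a block, 0 were higher and 0 lower, and over all genes the block called 1 against 0. No other result was fitted with it. The 4 libraries share a single replicate number and could not be blocked.

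Of the genes that fell, HIST2H2AA3 turned to 0.55, HIST2H2AA4 to 0.17 and HIST2H4B to 0.70 in log2 fold change over all 6 libraries, each with SiCIRBP_2 as the highest library. The summed level turned likewise over all 6 libraries, from a log2 change of -0.45 to 0.71 for all members, from -0.60 to 0.14 for H1, from -0.48 to 0.89 for H2A, from -0.44 to 0.67 for H2B, from -0.30 to 0.87 for H3 and from -0.22 to 1.21 for H4. In TPM it was -0.90 for H2A, -0.12 for H3 and -0.52 for H4. With 1 of the 4 libraries left out, it lay between -0.62 and -0.26 for all members, -0.90 and -0.35 for H1, -0.63 and -0.31 for H2A, -0.62 and -0.23 for H2B, -0.43 and -0.15 for H3, and -0.34 and -0.09 for H4.

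Machinery counts, 9 higher and 4 lower, became 0 and 0 over all 6 libraries and ran from 1 to 19 and from 0 to 10 with 1 library left out. Chaperone counts, 5 higher and 1 lower, became 0 and 0, ran from 0 to 13 and from 0 to 6, and were 8 and 3 without the filter. CIRBP had -1.07 over all 6 libraries (adjusted p = 0.103) and between -0.94 and -0.70 with 1 library left out, past the threshold in no fit without NC_2 or NC_3. The cause of these changes was not tested. With 2 libraries per group edgeR borrows the spread largely from other genes, and members with few counts limit what could be seen.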
